A study of Homo sapiens with 6 samples.

Results

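The respiratory chain of human mitochondria is built mostly from proteins whose genes lie in the cell nucleus. The nuclear-encoded subunits described here were chosen by name: protein-coding rows named NDUFA, NDUFB, NDUFC, NDUFS or NDUFV with a number, SDHA to SDHD, or starting with UQCR, ATP5 or COX4 to COX8. This gave 85 of 42307 gene rows, of which 37 belong to complex I, 4 to complex II, 9 to complex III, 15 to complex IV and 20 to complex V. A name is not a place in the chain: NDUFA4 is now known as a complex IV subunit, ATP5IF1 is an inhibitor of the ATP synthase and COX7A2L a factor that joins complexes, and all are kept where their names put them. Assembly factors, the electron carriers and the mitochondrially encoded subunits are outside the rule and are described last.

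RNA was sequenced from U251, an established human glioblastoma cell line, labelled wild type (WT) in genotype. All cells carried a plasmid for 3 days at 1 ug per well. The control group (NC, 3 libraries) had a negative control plasmid and the other group (STING-OE, 3 libraries) a plasmid for overexpression of STING, an adaptor protein that relays the detection of cytosolic DNA. The labels do not say whether the libraries of a group came from separate cultures, so p-values measure the spread between these libraries, which may be technical.

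The deposited counts summed to between 71498790 and 76566375 per library, and 3 counts in a library correspond to 0.0392 to 0.0420 CPM, the unit of level used below, which scales counts to library size. STING1, the gene on the plasmid, had counts of 2660, 2628 and 2360 in NC and 4327, 4226 and 3596 in STING-OE. That is 1.51-fold higher, with an adjusted p of 0.00221 in edgeR's quasi-likelihood test across all genes, adjusted by Benjamini-Hochberg. Of 8 glioma or astrocyte markers 7 had a mean of at least 1 CPM, and their sum was 4089 to 4243 CPM in NC and 3824 to 3971 CPM in STING-OE. Marker sums of leukocytes, epithelium, endothelium and oligodendrocytes were at most 13.5 CPM in any library. The neuron list reached 36.4 CPM, most of it SYT1 (32.3 CPM), and the oligodendrocyte marker MAG was at 0 in all libraries. In bulk RNA, fewer cells of a type and less RNA per cell cannot be told apart.

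Electrons enter the chain at complex I from NADH or at complex II from succinate, pass through ubiquinone to complex III and through cytochrome c to complex IV, where oxygen is reduced. Complexes I, III and IV pump protons, and complex V, the ATP synthase, uses the gradient to make ATP. Complexes I, III, IV and V combine nuclear-encoded with mitochondrially encoded subunits, whereas complex II is wholly nuclear-encoded. The promoters of many nuclear subunit genes are known to bind NRF1, members of the ETS family (NRF2/GABP) and YY1.

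The start regions of the genes are shown first because they are what the members of one complex could share. Windows of 250 bases before to 50 bases after the gene start were found for 68 of the 85 members in RefSeq (GRCh38.p14). On either strand, GCGCANGCG, the core of the NRF1 motif, occurred in 32.4% of the members' windows and in 8.05% of all 27305 windows. The ETS core CCGGAA occurred in 41.2% against 17.6%, and the YY1 motif AAGATGGC in 16.2% against 3.03%. The Sp1 motif GGGCGG was in 61.8% against 44.6%, and TATAAA in 8.82%, fewer than the 12% of all windows. At least 1 of the NRF1, ETS and YY1 motifs was present in 44 member windows, or 64.7%, and in 25.1% of all windows. The median GC content was 61.2% in the members' windows and 58.3% in all windows. All windows were not matched to the members for GC content, gene type or level. Whether the higher shares are particular to the respiratory chain was thus not tested. These motifs were chosen with the data in hand and a match is a description, not a bound site.

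For each complex, the 120 bases before the start are printed for the member with the smallest unadjusted p among those with a window. Capitals mark NRF1 matches. SDHA holds 3, UQCRC1 holds 2, ATP5MC2 holds 1, and NDUFA10 and COX7B hold none in these 120 bases.
NDUFA10, chr2:240025343-240025462, minus strand: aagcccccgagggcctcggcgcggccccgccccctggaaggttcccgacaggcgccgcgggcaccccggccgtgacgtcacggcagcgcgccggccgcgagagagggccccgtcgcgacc
SDHA, chr5:218200-218319, plus strand: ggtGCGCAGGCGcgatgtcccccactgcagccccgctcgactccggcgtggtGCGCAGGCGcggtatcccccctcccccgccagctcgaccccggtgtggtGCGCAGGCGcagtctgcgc
UQCRC1, chr3:48609647-48609766, minus strand: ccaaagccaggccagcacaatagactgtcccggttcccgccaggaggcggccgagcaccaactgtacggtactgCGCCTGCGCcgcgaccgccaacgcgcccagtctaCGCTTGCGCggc
COX7B, chrX:77899348-77899467, plus strand: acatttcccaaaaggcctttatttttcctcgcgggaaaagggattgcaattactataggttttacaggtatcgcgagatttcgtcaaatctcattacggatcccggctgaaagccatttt
ATP5MC2, chr12:53676084-53676203, minus strand: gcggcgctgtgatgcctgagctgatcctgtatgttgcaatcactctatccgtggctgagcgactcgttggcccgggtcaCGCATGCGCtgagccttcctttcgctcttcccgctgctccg
Members with and without a match stood on both sides of 0 in the comparison below. NDUFA10 and COX7B, with no match, had log2 fold changes of 0.14 and 0.15, and SDHA, UQCRC1 and ATP5MC2 had -0.08, -0.13 and -0.13. Those 5 genes were picked by p-value. Over all tested members with a window, the median log2 fold change was -0.03 for the 21 with an NRF1 match and 0.00 for the 44 without one, and the difference was not tested.

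Of the 85 members 80 were abundant enough to test, and none passed an adjusted p of 0.05 in either direction by edgeR's quasi-likelihood test. Over all 21679 genes tested, 1.49% passed, 0.604% as higher and 0.89% as lower in STING-OE. The smallest adjusted p of a member was 0.0957 (SDHC). At an unadjusted p under 0.05 there were 15 members, 4 with higher and 11 with lower estimates, against 14.4% of all genes, and the members' share was 18.75%. Among 8440 tested genes with levels like those of the members, 22.3% had an unadjusted p under 0.05. A share near or below that of comparable genes is not a result about the members.

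The members' changes were small as well as uncalled. Estimates were positive for 38 and negative for 42, with a median log2 fold change of -0.0047, where the median over all tested genes was 0.0010. The estimate was within 1.2-fold for 78 members and within 1.1-fold for 67. Within 1.2-fold lay 97.5% of the members, 72.9% of all tested genes and 96.1% of the 8440 genes with similar levels. Small changes were thus not particular to the members. The 95% confidence interval of the change lay within 1.2-fold in either direction for 64 of the 80. The median standard error was 0.0583 on the log2 scale, against 0.134 over all tested genes and 0.0617 over the genes with similar levels. All 3 STING-OE libraries lay above all 3 NC libraries for 6 members and below them for 5, where 10.1% and 9.73% of all tested genes did so.

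Summed over a complex, the levels of the 2 groups overlapped in all 5 complexes. All members together came to 6271, 6514 and 6510 CPM in NC and 6581, 6202 and 6231 CPM in STING-OE. The means were 6432 ± 139 (SD, n = 3) and 6338 ± 211 CPM (SD, n = 3), a ratio of 0.985, and the highest library was 1.06 times the lowest. STING-OE library 1 was the highest of the 6 and STING-OE library 2 the lowest, so the spread within that group was wider than the distance between the groups. The ratio of the group means was 0.988 for complex I, 0.973 for complex II, 1.00 for complex III, 0.975 for complex IV and 0.985 for complex V.

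**Figure D1:**
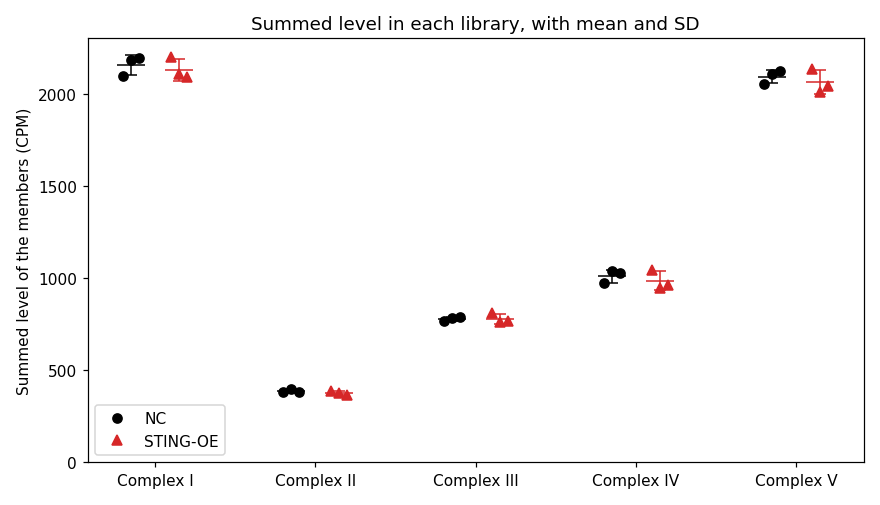
Summed level of the members of each complex in CPM (vertical axis, from 0) in each NC library (circles) and STING-OE library (triangles), with the mean and SD of each group. The groups overlap in every complex, and complexes I and V carry the largest sums.

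Complex I has the most members. None of its 37 genes passed, 6 had an unadjusted p under 0.05, and 15 estimates were positive and 22 negative (median log2 fold change -0.0095). The core subunits carry the flavin and the iron-sulfur clusters. NDUFS3, of the arm that reaches into the matrix, had a log2 fold change of 0.08 with an unadjusted p of 0.128. NDUFS1, the largest core subunit, was at 173, 160 and 173 CPM in NC and 168, 178 and 173 CPM in STING-OE, and NDUFV1, which binds the flavin, had means of 76.2 and 72.9 CPM. NDUFV2, NDUFS7 and NDUFS8 had log2 fold changes of 0.03, 0.00 and -0.03.

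Among the accessory subunits of complex I, NDUFA10 had the smallest p. It was at 88.9, 87.8 and 90.9 CPM in NC and 95.4, 101 and 98.1 CPM in STING-OE, and the groups did not overlap. The log2 fold change was 0.14 (SE 0.0469) with an adjusted p of 0.160. NDUFA7 was at 14.9, 13.9 and 17.1 CPM in NC and 11.8, 14.1 and 10.2 CPM in STING-OE, so STING-OE library 2 lay within the NC range. Its log2 fold change of -0.34 (SE 0.118, adjusted p 0.172) was the most negative among the members. NDUFB11, a membrane-arm subunit encoded on the X chromosome, was at 33.3, 38.2 and 36.9 CPM in NC and 33.8, 30.0 and 31.8 CPM in STING-OE, with overlap in STING-OE library 1 and a log2 fold change of -0.18.

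The other supernumerary subunits of complex I surround the core and help to assemble and stabilise it. NDUFB8, of the membrane arm, was at 52.9, 58.4 and 57.5 CPM in NC and 54.6, 48.9 and 50.4 CPM in STING-OE, with overlap, a log2 fold change of -0.13 and an unadjusted p of 0.0389. NDUFA5, of the peripheral arm, had means of 74.7 and 80.9 CPM and a log2 fold change of 0.11, and NDUFB7 had means of 40.9 and 37.5 CPM and a log2 fold change of -0.13. NDUFA8 lay higher in all 3 STING-OE libraries, by as little as 32.6 against 32.0 CPM at the nearest pair, and its log2 fold change was 0.07. At the other end of the p-values, NDUFS4 and NDUFB6 had log2 fold changes of -0.01 and -0.02, with coefficients of variation in NC of 0.90% and 1.16%. For such members the interval of the change was narrow and included 0.

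Several complex I rows share sequence with other gene models, and how their reads were assigned, with or without strand, is not given in the sources used here. NDUFA13 lay lower in all 3 STING-OE libraries (means 54.4 and 49.1 CPM, adjusted p 0.291), while AC011448, a model on the same strand that overlaps it, had means of 8.12 and 15.4 CPM. Their sum was 62.6 ± 6.05 CPM in NC and 64.5 ± 6.09 CPM in STING-OE (SD, n = 3), and the groups overlapped. The NDUFC2 row (80.7 and 73.7 CPM, no overlap, adjusted p 0.215) and its readthrough model NDUFC2-KCTD14 together came to 84.0 and 78.3 CPM with overlap. For NDUFA7 and AC010323 the sum was 16.8 and 14.4 CPM, without overlap. Reads of NDUFA7 may also come from RPS28 on the opposite strand. Of the tested members 36 overlapped another tested model, for 21 of them one with at least 10% of the member's own level.

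Per unit of length, the deposited FPKM values put NDUFS5 highest in complex I, at 177 ± 7.39 in NC and 179 ± 8.81 in STING-OE (SD, n = 3). NDUFV3 was lowest, at 4.18 ± 0.17 and 4.17 ± 0.21. Neither differed between the groups beyond the spread. These orders depend on the length behind the FPKM values. For 69 of 80 members it lay within 10% of the union of the gene's exons in GENCODE v29. ATP5F1A and ATP5F1B, which alternate in the head of complex V, had 14.7 and 288 FPKM in NC with lengths of 11846 and 2430 bases, so part of that gap comes from the gene models.

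Complex II, which is also succinate dehydrogenase of the citric acid cycle, contained the member with the smallest p of all. SDHC, a membrane anchor, was at 90.7, 92.2 and 94.1 CPM in NC and 87.1, 77 and 79.4 CPM in STING-OE. All 3 STING-OE libraries lay below NC, with STING-OE library 1 closest, and the log2 fold change was -0.19 (SE 0.0530, adjusted p 0.0957). SDHD, the other anchor, was at 85.9, 83.0 and 80.7 CPM in NC and 82.6, 88.8 and 88.1 CPM in STING-OE, with a log2 fold change of 0.06. The catalytic flavoprotein SDHA and the iron-sulfur subunit SDHB had log2 fold changes of -0.08 and 0.05, and both overlapped. SDHA has a near copy, SDHAP1, at 43.2 CPM in NC and 47.3 CPM in STING-OE, and reads could be split between them. By FPKM, SDHB was highest (37.8 in NC) and SDHA lowest (12.1).

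SDHC passed in 4 of the 16 alternatives. It had an adjusted p of 0.0293 where genes under a mean of 1 CPM were left out (4.33% of genes passed there), 0.0257 by DESeq2, 0.0333 with offsets for length and GC content and 0.0169 without STING-OE library 1, and it missed the threshold in the other alternatives. Its log2 fold change was negative in all 16 alternatives.

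**Figure D2:**
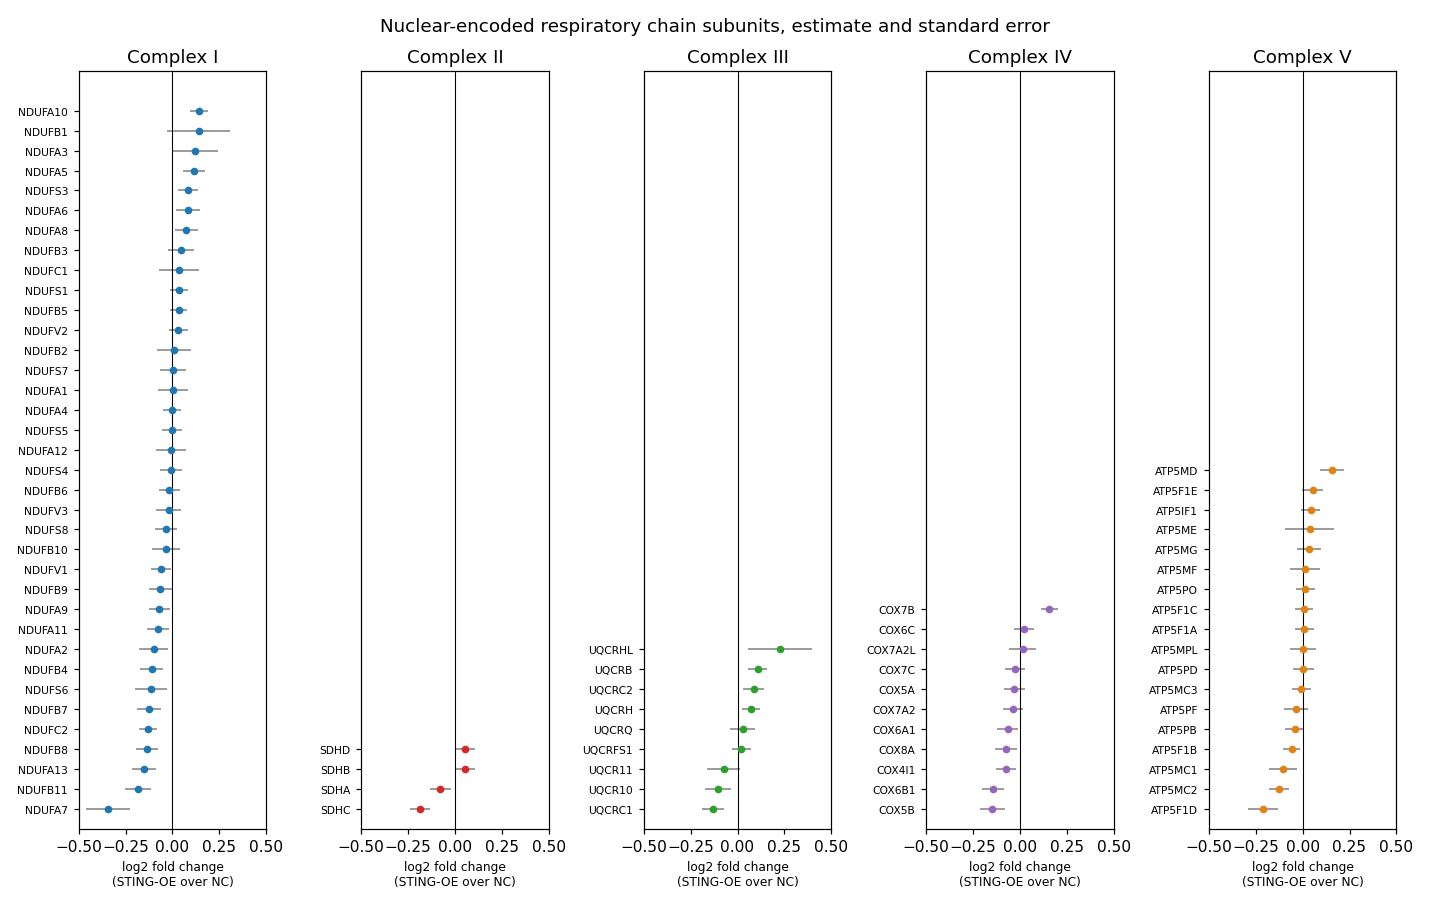
Log2 fold change (STING-OE over NC, horizontal axis) of tested members by complex, with the standard error as a bar. Most points lie within 0.2 of 0 on the log2 scale, NDUFA7 is furthest to the left, and the readthrough model ATP5MF-PTCD1 (1.37, SE 0.752) is not drawn.

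In complex III none of 9 members passed. UQCRC1, a core protein, was at 210.5, 211.5 and 201.6 CPM in NC and 208.5, 173.8 and 187.7 CPM in STING-OE. STING-OE library 1 lay within the NC range and the log2 fold change was -0.13 (SE 0.0579, adjusted p 0.315). Without that library it was -0.20 with an adjusted p of 0.0322. UQCRC2, the partner core protein, had a log2 fold change of 0.09, and UQCRFS1, the Rieske iron-sulfur protein, of 0.02. UQCRB, which lies near the ubiquinone site, was at 93.3, 99.3 and 102 CPM in NC and 105.5, 108.5 and 103.3 CPM in STING-OE, without overlap (log2 fold change 0.11, adjusted p 0.327). UQCRH, the hinge protein that contacts cytochrome c1, had the highest FPKM (71.2 in NC). UQCRHL, a near copy of UQCRH on the same chromosome, was lowest at 1.82 FPKM, and its counts (4.0% of the pair's in NC, 4.43% in STING-OE) may include reads of UQCRH.

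The small subunits of complex III carry no redox centre. UQCR10, UQCR11 and UQCRQ had log2 fold changes of -0.11, -0.07 and 0.03. All 3 overlapped between the groups, and UQCR11, with one of the shortest coding sequences among the members, was at 45.4 CPM in NC library 1 against 57.4 and 55.6 CPM in the other NC libraries.

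In complex IV, 11 of 15 members were tested and none passed. COX7B, a small subunit encoded on the X chromosome, was at 90.3, 92.8 and 93.9 CPM in NC and 102, 104 and 102 CPM in STING-OE. The groups were well apart relative to their spread, and the log2 fold change was 0.15 (SE 0.0454, adjusted p 0.107). COX7B passed by DESeq2, with an adjusted p of 0.0208, where 7.41% of 12451 genes passed, and SDHC was the other member to do so. By limma-voom, where 1.45% of genes passed, no member did. COX6B1 and COX5B had log2 fold changes of -0.14 and -0.15 (adjusted p 0.277 and 0.321), and in both STING-OE library 1 lay within the NC range. COX4I1, the regulatory subunit that binds ATP, had means of 127 and 121 CPM. COX8A had the highest FPKM (171 in NC), COX7A2L had a log2 fold change of 0.01, and 8 of the 11 estimates in the complex were negative (median log2 fold change -0.0396).

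COX5A, COX6A1, COX6C, COX7A2 and COX7C, which surround the catalytic core of complex IV, all overlapped between the groups. Their log2 fold changes ran from -0.07 for COX6A1 to 0.02 for COX6C. COX7C was at 107, 119 and 118 CPM in NC and 117, 110 and 111 CPM in STING-OE, an overlap typical of these 5 genes.

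Isoforms known from heart and skeletal muscle, testis or other tissues were scarce in these cells. COX7A1, the muscle form, reached at most 0.113 CPM, where COX7A2 was at 105 CPM in NC. COX6B2 and COX8C, known from testis, reached at most 0.106 and 0.142 CPM, and COX7B2 had no count in any library. None of these 4 was tested, nor was ATP5MGL, with at most 0.0388 CPM. NDUFA4L2, a hypoxia-responsive relative of NDUFA4, made up 0.773 ± 0.302% of the pair's counts in NC and 0.749 ± 0.149% in STING-OE (SD, n = 3). COX4I2 and COX6A2 were not analysed here.

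Complex V had 19 tested members, 12 with positive and 7 with negative estimates, and none passed. ATP5F1B, the catalytic beta subunit, was the most abundant member in CPM and FPKM. It was at 708, 702 and 698 CPM in NC and 717, 648 and 660 CPM in STING-OE, with a log2 fold change of -0.06. Of the other F1 subunits, ATP5F1A and ATP5F1C were at 0.01, ATP5F1E at 0.05 and ATP5F1D at -0.21 on the same scale. ATP5F1D, the delta subunit of the central stalk, was at 38.0, 47.1 and 43.8 CPM in NC and 39.9, 34.1 and 37.4 CPM in STING-OE, with overlap and an adjusted p of 0.229. Its GC content, 67.5%, was the highest among the members. ATP5MD, a small subunit of the membrane part, had a log2 fold change of 0.16 (adjusted p 0.270) without overlap, the lowest STING-OE library at 59.3 CPM and the highest NC library at 59.2 CPM.

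The peripheral stalk holds the head of complex V in place, and its 4 genes ATP5PB, ATP5PD, ATP5PF and ATP5PO had log2 fold changes of -0.04, 0.00, -0.03 and 0.01. ATP5PB, the most abundant of the 4 per length at 49.2 FPKM in NC, was at 170, 164 and 171 CPM in NC and 152, 173 and 165 CPM in STING-OE. The small membrane subunits ATP5ME, ATP5MF, ATP5MG and ATP5MPL had log2 fold changes of 0.04, 0.01, 0.04 and 0.00, and all 4 had their lowest value of the 6 libraries in NC library 1. The readthrough model ATP5MF-PTCD1 had counts of 4, 22 and 8 in NC and 17, 65 and 12 in STING-OE, and its log2 fold change of 1.37 had a standard error of 0.752. ATP5IF1, the inhibitor, was at 50.4, 51.1 and 51.8 CPM in NC and 53.9, 52.0 and 52.0 CPM in STING-OE, narrowly apart, with a log2 fold change of 0.04 and an adjusted p of 0.803.

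The membrane ring of complex V is made of 1 mature protein, encoded by 3 genes with different leader peptides. ATP5MC2 was at 88.47, 85.21 and 87.70 CPM in NC and 85.15, 76.61 and 77.60 CPM in STING-OE (log2 fold change -0.13, SE 0.0520, adjusted p 0.261), narrowly without overlap. ATP5MC1 and ATP5MC3 overlapped, with log2 fold changes of -0.10 and -0.01. As a share of the counts of the 3 genes, ATP5MC3 took 56.1, 57.8 and 57.3% in NC and 58.6, 58.5 and 60.0% in STING-OE. The shares did not overlap and differed by less than 4 percentage points between any 2 libraries. With 3 libraries a group an exact two-sided permutation test cannot go below 0.1, so no p is given.

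**Figure D3:**
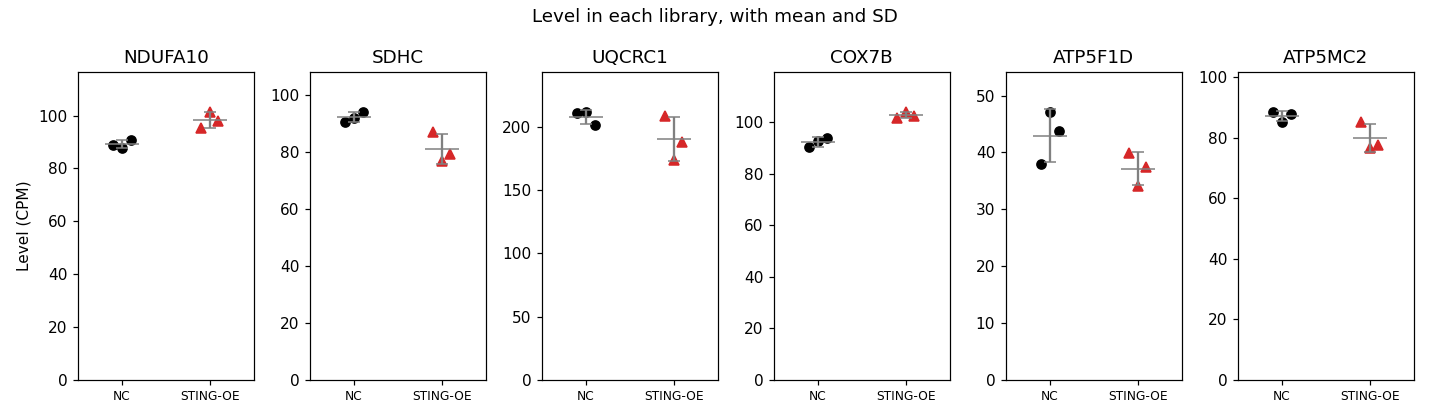
Level in CPM (vertical axis, from 0) of 6 members in each NC (circles) and STING-OE (triangles) library, with the mean and SD in grey. NDUFA10, SDHC, COX7B and ATP5MC2 separate by group, and UQCRC1 and ATP5F1D overlap.

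Members with positive and with negative estimates differed in base composition, and a trend in the same direction ran through tested genes in general. Across 79 members, the log2 fold change and the GC content of the exons had Pearson's r of -0.50 and Spearman's rho of -0.51. Across 12558 tested genes with a coding length and a mean of at least 1 CPM, r was -0.24 and rho was -0.33. Genes are not independent replicates, and all of them share the same 6 libraries. Of 16 members with a GC content of 55% or more, 14 had a negative estimate (median log2 fold change -0.08), and of 21 under 45%, 14 had a positive one (median 0.02). Shares over all genes in these classes were not computed, and the class limits were chosen after the data were seen.

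Slopes on GC content were fitted to each gene's level relative to its own mean over the 6 libraries. Such slopes cancel across the libraries, so their signs only compare libraries with each other. Per 10% of GC content, the members' relative levels sloped by 0.0173, 0.0580 and 0.0317 (log2) in NC libraries 1 to 3. In STING-OE libraries 1 to 3 they sloped by 0.0198, -0.0655 and -0.0612. Over the 12558 genes the slopes were 0.0142, 0.0510 and 0.0236 in NC and 0.0333, -0.0753 and -0.0469 in STING-OE. A similar pattern was thus present in genes in general. With offsets for length and GC content, r was -0.09 across the members and 2.20% of all genes passed, with SDHC the only member (log2 fold change -0.21). These offsets remove each library's trend with GC content across genes, so a weaker r is built into them and is not a separate result. Without STING-OE library 1, 3.27% of all genes passed, and the members were SDHC and UQCRC1. Whether GC content played a part in the differences of single members was not tested.

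NC library 1 was low in the shortest members, and less so in short genes in general. Of 40 members with a coding length under 400 bases, 36 were lower in NC library 1 than the mean of NC libraries 2 and 3, with a median log2 difference of -0.12. Of 39 longer members 24 were lower, with a median of -0.02. Such counts were not made over all genes. Relative to the mean of the 6 libraries, NC library 1 had a median log2 deviation of -0.0799 in short members and 0.0110 in longer ones. Over all short and longer genes with a mean of at least 1 CPM it was -0.0334 and 0.0088. STING-OE library 2 had a median deviation of -0.0326 over all short genes. NDUFB1 was at 8.60 CPM in NC library 1 against 13.5 and 14.2 CPM, NDUFC1 at 15.1 against 20.7 and 20.7 CPM, and ATP5ME at 9.20 against 13.4 and 13.6 CPM. The STING-OE libraries of these 3 genes lay close to NC libraries 2 and 3. The length limit was chosen after the data were seen. Without NC library 1 the members' median log2 fold change was -0.05 in place of -0.00, and no member passed.

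**Figure D4:**
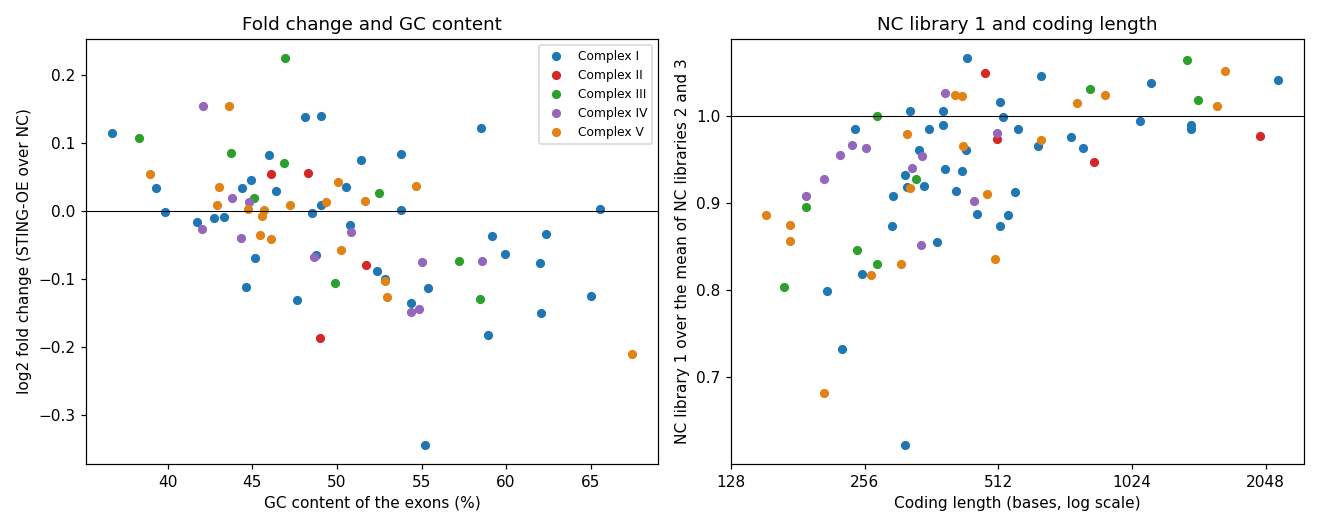
Left, log2 fold change (STING-OE over NC) of each member against the GC content of its exons in percent; right, the level in NC library 1 divided by the mean of NC libraries 2 and 3 against coding length in bases on a log scale. ATP5MF-PTCD1 is not drawn. The estimates slope downward with GC content, and NC library 1 falls below 1 mostly among short members.

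The proteins that work beside the members were examined as fixed lists. CYCS, cytochrome c, was at 373, 378 and 398 CPM in NC and 412, 438 and 421 CPM in STING-OE, without overlap, and had a log2 fold change of 0.15 (SE 0.0441, adjusted p 0.116). CYC1, the cytochrome c1 of complex III, and NDUFAB1, the acyl carrier of complex I, were at -0.13 on that scale, and ETFA, ETFB and ETFDH, which feed electrons from fatty acid oxidation to ubiquinone, at -0.03, -0.15 and -0.01. None of these 6 genes passed, though CYCS did by DESeq2 (adjusted p 0.0101) and without STING-OE library 1 (adjusted p 0.0374). Of the assembly factors 0 of 18 for complex I, 0 of 4 for complex II, 0 of 6 for complex III and 0 of 6 for complex V passed. For complex IV 1 of 23 rose, COA7, with 55.5, 57.3 and 57.4 CPM in NC and 64.0, 66.8 and 67.3 CPM in STING-OE (log2 fold change 0.22, adjusted p 0.0409). That call was lost in 8 of the 16 alternatives. Over all tested genes 1.49% passed, so a single call among the assembly factors is near that share and not a result about them. COX20, of the same list, was at 23.1, 16.9 and 17.6 CPM in NC and 24.2, 23.8 and 26.4 CPM in STING-OE, without overlap (log2 fold change 0.37, adjusted p 0.113), and passed by DESeq2 (adjusted p 0.0229) and without NC library 1 (adjusted p 0.0256).

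The subunits encoded by mitochondrial DNA, which assemble with the members, were tested in the same fit. Of 13 tested, 6 fell and 0 rose, where 0.89% of all tested genes fell and 0.604% rose. The 13 rows come from the same libraries and are not independent outcomes. No share was computed for genes as abundant as these. How reads were assigned to them, with or without strand, is not given in the sources used here. All 13 had negative estimates, with a median log2 fold change of -0.16 against -0.00 for the nuclear members. The 6 were MT-ND5, MT-ND6, MT-CO1, MT-CO3, MT-ATP6 and MT-ATP8. MT-ND6, with the smallest p of the 13, was at 377, 400 and 389 CPM in NC and 322, 315 and 315 CPM in STING-OE. Its log2 fold change was -0.29 (adjusted p 0.00296), and its call was kept in all 16 alternatives. The calls of MT-ND5, MT-CO3 and MT-ATP8 were lost in 5, 3 and 2 of them. MT-CO1, the catalytic subunit of complex IV, was at 12920, 12571 and 12077 CPM in NC and 10977, 9763 and 10960 CPM in STING-OE (log2 fold change -0.25, adjusted p 0.0200), and its call was lost in 8 of the 16 alternatives. MT-ATP6, the channel subunit of complex V, was at 3291, 3360 and 3252 CPM in NC and 2848, 2559 and 2764 CPM in STING-OE (log2 fold change -0.28, adjusted p 0.0054), and its call was lost without NC library 1 or without NC library 2.

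Summed over the 13 genes, the mitochondrially encoded subunits came to 39773, 39449 and 38023 CPM in NC and 35066, 31959 and 34909 CPM in STING-OE, a ratio of the means of 0.869. Divided by the summed level of the nuclear members, they came to 6.34, 6.06 and 5.84 in NC and 5.33, 5.15 and 5.60 in STING-OE. The libraries did not overlap, with NC library 3 and STING-OE library 3 nearest to each other. The difference between the nuclear and the mitochondrial lists was not tested by a model. The number of mitochondrial calls was lowest, at 1, without NC library 1 (0.266% of all genes passed) or without NC library 2 (0.266%). It was highest, at 11, by DESeq2 (7.41%). All 13 estimates were negative in each of the 16 alternatives.

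**Figure D5:**
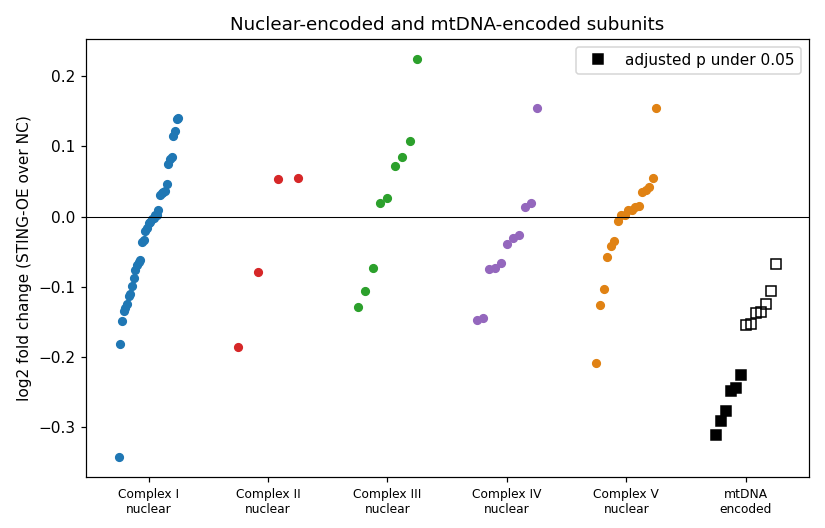
Log2 fold change (STING-OE over NC, vertical axis) of the nuclear-encoded members by complex (circles) and of the 13 subunits encoded by mitochondrial DNA (squares, filled where the adjusted p was under 0.05). The nuclear members scatter around 0 and all 13 squares lie below it; ATP5MF-PTCD1 is not drawn.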

How the data were processed

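Libraries were prepared from Trizol-extracted total RNA with Illumina TruSeq reagents, per the labels' protocols. Bowtie 0.12.2 is listed in the submitters' processing notes. The way reads were assigned to genes, any use of strand, and the annotation and build behind the tables: each is not given in the sources used here. The deposited tables, per the file headers, list the authors' read count and FPKM of every gene by library. The deposited counts are whole numbers. The deposited FPKM was proportional to the count with 1 length per gene. It was used to compare levels between genes and for the summed levels in 1 alternative. The length it implies, not the coding length, was the length in the offsets for length and GC content. GC content and coding length came from GENCODE v29.

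Differences were tested by the quasi-likelihood method of edgeR 4.0.16 (R 4.3.3; robust fit, TMM scaling, genes kept by filterByExpr, two-sided p adjusted by Benjamini-Hochberg over all genes tested, threshold 0.05), 3 against 3 libraries without covariates. CPM uses TMM-scaled library sizes. The standard errors are approximate. The procedure was tested on simulated data, where it recovered the direction and size of changes. When each gene kept its own dispersion, more of the calls were false than the nominal rate, so calls near the threshold are less firm than their adjusted p.

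The genes named with values were the members past the threshold, for each complex the 3 with the smallest unadjusted p and the highest and lowest by FPKM, the core, complex II, F1, c-ring, isoform and carrier lists, the called and the 2 smallest-p genes of the other lists, and STING1. Other genes named were chosen after their values were seen. For some genes under this rule, no values are given. The members and lists were chosen with earlier results of these data known. Libraries of 1 group were compared pairwise and none agreed within sampling noise. Alternatives were other scalings, filters and tools (DESeq2 1.42.0, limma-voom in limma 3.58.1), a block for the replicate number, offsets for length and GC content, and leaving out each library.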

Additional observations from a re-analysis of the deposited data

How the results depend on the processing

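No member passed in 12 of the 16 alternatives. Over all genes, 324 passed in the main test, 645 with genes under a mean of 1 CPM left out, 922 by DESeq2, and 60 to 741 with 1 library left out. Members called lower numbered 1 with the mean of at least 1 CPM, 1 by DESeq2, 1 with length and GC offsets, and 0 to 2 with 1 library left out (2 without STING-OE library 1). Members called higher numbered 1 by DESeq2. The complex V median log2 fold change was 0.0092 in the main test, -0.0467 with length and GC offsets, and -0.0412 to 0.0384 with 1 library left out. The summed level of complex II, STING-OE over NC, was 1.01 by the sum of FPKM in place of 0.973, and the cause was not tested. STING1 stayed past the threshold in all 16.

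The labels give both groups replicate numbers 1 to 3, but correlations of same-numbered libraries were 0.160, 0.102 and 0.0226, so the numbers were not taken to pair the samples. Libraries numbered 1 correlated best with each other, and so did libraries numbered 2. NC library 3 correlated best with STING-OE library 2 (0.0583), and STING-OE library 3 with NC library 2 (0.0233). Whether the numbers pair the samples cannot be told from these values. With a replicate block 120 genes passed, and 113 with a replicate block with length and GC offsets. In that last fit the complex V median was -0.0460.

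Of 57 genes named by the rule that did not pass, 38 had the same sign of log2 fold change in all alternatives. The remaining 19 had another sign in at least 1. Of the other members described, ATP5PD, ATP5MPL, COX6C, ATP5MG, ATP5PO, ATP5MF and UQCRQ also had both signs among the alternatives. So did NDUFB6, NDUFS4, COX7C, COX5A, ATP5PF, ATP5PB, ATP5ME, NDUFB1 and NDUFC1. No direction is claimed for any of these or for the 19. For the 19, the values with the other sign follow. With total counts only, they were 0.0232 for ATP5MC3, 0.0202 for ETFDH, 0.0282 for NDUFA4, 0.0274 for NDUFS5 and 0.00976 for NDUFV3. With upper-quartile scaling, they were -0.000514 for ATP5F1A, -0.000278 for ATP5F1C and -0.00734 for NDUFS7, which was -0.000390 with RLE scaling. With length and GC offsets, without and then with the replicate block, they were -0.0100 and -0.00962 for ATP5F1A, -0.0467 and -0.0475 for ATP5F1C, -0.0392 and -0.0392 for COX7A2L, 0.00239 and 0.00194 for COX8A, 0.0148 and 0.0671 for NDUFA4L2, 0.0318 and 0.0316 for NDUFS8, -0.0168 and -0.0179 for NDUFV2, and -0.0310 and -0.0328 for UQCRFS1. With the replicate block alone, they were 0.000455 for NDUFA4L2 and -0.000288 for NDUFS7, and by limma-voom 0.0163 for NDUFA4L2. With 1 library left out, the log2 fold changes ran from -0.0306 to 0.0355 for ATP5F1A, -0.0184 to 0.0295 for ATP5F1C, -0.00127 to 0.104 for ATP5F1E, -0.0506 to 0.0458 for ATP5MC3, -0.0902 to 0.0106 for COX7A2, -0.0596 to 0.0591 for COX7A2L, -0.0916 to 0.0305 for ETFA, -0.0830 to 0.0674 for ETFDH, -0.0332 to 0.0231 for NDUFA4, -0.291 to 0.321 for NDUFA4L2, -0.00124 to 0.0542 for NDUFS1, -0.0426 to 0.0350 for NDUFS5, -0.0514 to 0.0691 for NDUFS7, -0.0966 to 0.00587 for NDUFS8, -0.00937 to 0.0617 for NDUFV2, -0.0513 to 0.00971 for NDUFV3, -0.0179 to 0.319 for SDHAF3 and -0.0236 to 0.0484 for UQCRFS1. The cause of these changes of sign was not tested.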
